A study of Mus musculus with 80 samples.

Results

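The 34 genes described here encode the enzymes that oxidize fatty acids, together with the PPAR and ERR type regulators of those enzymes. The list was drawn up by name, and a member had to average at least 1 CPM over all 80 libraries, where CPM is the usual count for a fixed number of reads, with library sizes scaled by TMM factors. All 34 of the 34 listed genes passed, out of 56941 genes in the table, and all 34 were among the 15879 genes tested.

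The samples are left ventricular tissue of C57Bl/6J mice, in 8 groups of 10 libraries. In each sex the groups were mice on a Western diet without irradiation (0 cGy), mice on the normal diet with 50 cGy of a field labelled only as mixed, mice on the normal diet with 100 cGy of gamma radiation, and sham mice on the normal diet (0 cGy). Doses are absorbed doses in centigray (cGy). The labels give no age, time after exposure, hour of collection or components of the mixed field. They do not say that libraries came from separate animals, so the spread that p-values rest on may be in part technical. In every group 5 libraries have title numbers from 1 to 20 and the other 5 have numbers from 21 to 40. What separates these title runs is not given, and the 8 groups split by run are called the 16 sets of 5 libraries below.

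Heart muscle draws most of its energy from fatty acids. A fatty acid is activated to acyl-CoA, carried into the mitochondrion as an ester of carnitine, and shortened in a repeated cycle of dehydrogenation, hydration, dehydrogenation and thiolytic cleavage. Electrons leave the cycle through NADH and through the electron transfer flavoprotein. PPARα, a nuclear receptor activated by fatty acids, binds DNA with a retinoid X receptor and raises transcription of many of these enzymes, and PPARδ and ERRα act on overlapping sets of genes with the coactivator PGC-1α. Peroxisomes run a shorter version of the cycle on very long and branched chains.

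Total counts ran from 13484776 to 22143504 per library, with a mean of 16518589. The 10 cardiomyocyte markers summed to between 52314.9 and 82107.2 CPM in every library. Transcripts of other cells moved with sex and title run. Myl7, the atrial myosin light chain, was over 10 CPM in 20 libraries, all of them male and 17 of them titled 1-20, against at most 0.452 CPM in any female library. Female gamma replicate 7 had 0.129 CPM of Xist, against at least 102 CPM in every other female library. Female mixed field replicate 10 correlated least with its own group (median r of 0.958). Calls lost without the libraries over 10 CPM of Myl7 are named beside the results, and those lost without either female library there or at the end. Title runs in males could not be compared without the libraries over 10 CPM of Myl7. Leaving those libraries out takes away most males titled 1-20, so it changes the balance of title runs too. In bulk tissue, fewer cells of a type and less RNA per cell cannot be told apart.

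Levels are first given by role, in CPM, which are not divided by gene length. Acsl1, the synthetase that activates long chains at the mitochondrial surface, averaged 796 ± 126 CPM (SD, n = 80). Crat, which moves acetyl groups between carnitine and CoA, averaged 538 ± 66.0 CPM. Cpt2, which rebuilds acyl-CoA on the matrix side, averaged 254 ± 35.2 CPM, and Slc25a20, the carnitine-acylcarnitine carrier of the inner membrane, averaged 183 ± 25.2 CPM. Mlycd degrades malonyl-CoA, the inhibitor of carnitine palmitoyltransferase 1, and averaged 125 ± 16.4 CPM. Acot13, a thioesterase, averaged 195 ± 30.7 CPM.

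Carnitine palmitoyltransferase 1 of the outer membrane sets the rate of entry. Cpt1a, the liver-type form, averaged 48.1 ± 8.0 CPM and Cpt1b, the muscle-type form, 7.10 ± 2.90 CPM, with a range over the 80 libraries of 1.26 to 15.1 CPM. Of the merged exon bases of Cpt1b, 68.46% are shared on the same strand with the annotated gene Gm44502, which had 0 counts in all 80 libraries. The level of Cpt1b, at chr15:89300606-89310239 on the minus strand of GRCm39, is therefore uncertain. The same holds for Etfb, at chr7:43093493-43107224 on the plus strand: 43.55% of its exon bases are shared on the same strand with Etfbl and Mir7051, which averaged 0.000736 and 0.0106 CPM, and Etfb averaged 5.76 ± 1.85 CPM beside 560 ± 74.2 CPM for its partner subunit Etfa, or 3.70 and 87.4 CPM per kilobase of exon. How reads in shared exons were counted is not given in the sources used here. The changes and slopes of Cpt1b and Etfb below may therefore describe only part of their transcripts.

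The mitochondrial cycle was covered by 12 members. Hadha and Hadhb, the subunits of the trifunctional protein that carries out the last 3 steps on long chains, averaged 1626 ± 257 and 1575 ± 254 CPM. The acyl-CoA dehydrogenases were Acadm (medium chains, 1149 ± 173 CPM), Acadl (long chains, 970 ± 98.2 CPM), Acadvl (very long chains, 412 ± 69.4 CPM) and Acads (short chains, 239 ± 29.4 CPM). The less studied relatives Acad11 and Acad10 averaged 106 ± 16 and 10.3 ± 2.93 CPM. Acaa2, the mitochondrial thiolase, averaged 871 ± 139 CPM, Hadh, the dehydrogenase of medium and short hydroxyacyl chains, 559 ± 84.2 CPM, Echs1, the short-chain hydratase, 320 ± 31.9 CPM, and Hsd17b10, a dehydrogenase of short branched chains, 91.7 ± 13 CPM.

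The auxiliary enzymes handle unsaturated chains, and Decr1, a dienoyl-CoA reductase, averaged 378 ± 56.7 CPM. The isomerases Eci1 and Eci2 averaged 240 ± 34.8 and 85.1 ± 10.2 CPM. Etfdh, which hands electrons from the flavoprotein to ubiquinone, averaged 553 ± 91.1 CPM. The list holds 4 peroxisomal genes. Hsd17b4, the multifunctional enzyme of branched chains, averaged 105 ± 11.9 CPM, Acaa1a, the peroxisomal thiolase, 87.6 ± 9.87 CPM, Pex11a, a membrane factor of peroxisome division, 23.8 ± 3.73 CPM and Ehhadh, the bifunctional enzyme, 12.8 ± 2.51 CPM. Among the regulators Esrra (ERRα) averaged 178 ± 19.6 CPM, Ppargc1a (PGC-1α) 67.7 ± 17.3 CPM, Ppard (PPARδ) 40.7 ± 4.48 CPM and Ppara (PPARα) 24 ± 12 CPM.

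Between genes, levels were ordered by CPM per kilobase of merged exons. Merged exons take in every annotated transcript, so the order depends on the annotation. Hadha and Hadhb, close in CPM, had merged lengths of 9550 and 15733 bases and so 170 and 100 CPM per kb. Acadl was highest at 248 CPM per kb, followed by Acadm at 182, Hadha at 170 and Acaa2 at 135 CPM per kb, all above 99% of the genes tested. Acad10, at 1.09 CPM per kb, and Cpt1b, at 1.77 CPM per kb, were last, and the place of Cpt1b is uncertain because of its shared exons. Without a stated strand setting, reads from opposite-strand neighbours may be included, and the share of exon bases under such neighbours was 74.52% for Acot13 (BC005537 and Tdp2), 38.2% for Acadvl (Dvl2), 31.46% for Esrra (mostly Trmt112), 31.05% for Hadha (Garem2 and Hadhb), 27.37% for Ppara (Cdpf1) and 24.45% for Crat. Of these neighbours BC005537 averaged 200 CPM, beside the 195 CPM of Acot13.

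**Figure D1:**
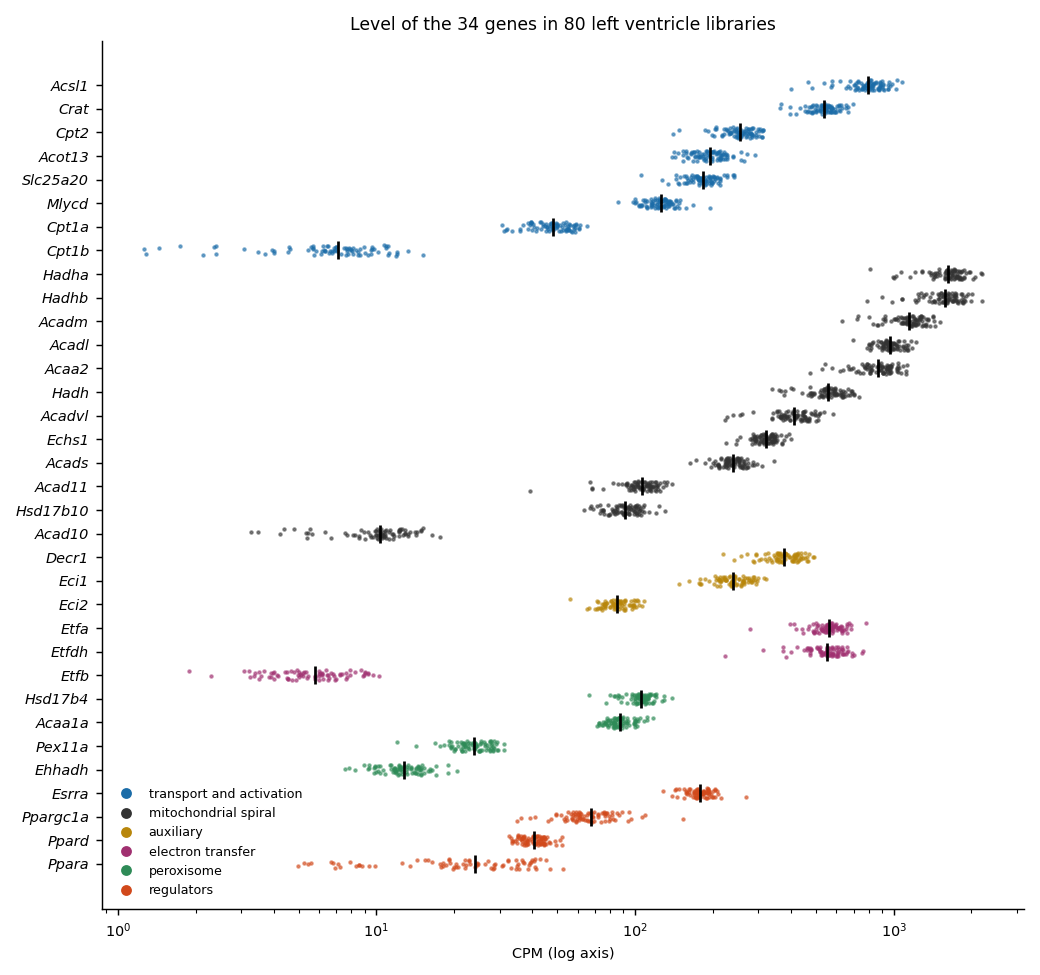
CPM on a log axis of each of the 34 genes in each of the 80 libraries (points, coloured by role), with the mean as a black bar; genes are ordered by mean within each role. Hadha and Hadhb average 1626 and 1575 CPM, Cpt1b and Etfb 7.10 and 5.76 CPM, and Ppara spreads over 4.99 to 52.8 CPM; CPM are not divided by gene length.

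Promoter windows from RefSeq, of 250 bases before to 50 bases after a start, were found for 28 of the 34 genes, in 29 windows of 300 bases on GRCm38.p6, a build other than the GRCm39 of the counts. They are shown because many of these genes moved together and share named regulators. PPAR and its partner bind 2 copies of AGGTCA in the same direction with 1 base between them, and the windows were searched for that pattern on both strands. Allowing 2 mismatches outside the spacer base, 3 of the 29 windows held it, against 3.86% of all 32851 windows in the table. The capitals below mark the match.
Echs1 (chr7:140116372-140116671, minus strand): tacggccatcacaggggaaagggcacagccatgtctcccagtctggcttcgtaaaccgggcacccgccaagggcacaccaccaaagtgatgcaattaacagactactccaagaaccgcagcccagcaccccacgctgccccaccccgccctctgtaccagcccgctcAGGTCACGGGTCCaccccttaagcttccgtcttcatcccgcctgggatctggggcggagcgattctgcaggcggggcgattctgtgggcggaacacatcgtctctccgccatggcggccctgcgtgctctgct
Etfa (chr9:55512194-55512493, minus strand): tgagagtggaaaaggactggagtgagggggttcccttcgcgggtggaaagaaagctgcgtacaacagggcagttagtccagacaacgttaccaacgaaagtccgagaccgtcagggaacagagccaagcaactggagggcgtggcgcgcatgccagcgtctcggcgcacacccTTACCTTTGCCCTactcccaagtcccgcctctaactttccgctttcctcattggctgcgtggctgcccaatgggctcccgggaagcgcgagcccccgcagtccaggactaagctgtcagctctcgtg
Slc25a20 (chr9:108661886-108662185, plus strand): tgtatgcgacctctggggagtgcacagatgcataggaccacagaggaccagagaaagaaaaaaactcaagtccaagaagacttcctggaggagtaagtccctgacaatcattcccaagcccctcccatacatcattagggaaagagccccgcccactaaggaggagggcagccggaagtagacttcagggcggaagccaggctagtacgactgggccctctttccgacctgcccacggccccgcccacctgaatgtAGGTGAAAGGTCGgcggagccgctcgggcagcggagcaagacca
The match lay 83 bases before the start in Echs1 and 77 bases before it in Etfa, and it began 6 bases after the start in Slc25a20. With at most 1 mismatch 0 of the 29 windows matched, against 0.554% of all windows, and with none 0 matched, against 0.0396%. AGGTCA alone, on either strand, was in 4 of 29 windows, against 16.3% of all, and with TCA in front of it, the form that ERR proteins bind, in 0 of 29, against 0.423%. These counts describe letters in short windows and say nothing of binding.

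Hadha and Hadhb start 273 bases apart on opposite strands and their windows share 228 bases, marked by capitals in the Hadhb window.
Hadhb (chr5:30155003-30155302, plus strand): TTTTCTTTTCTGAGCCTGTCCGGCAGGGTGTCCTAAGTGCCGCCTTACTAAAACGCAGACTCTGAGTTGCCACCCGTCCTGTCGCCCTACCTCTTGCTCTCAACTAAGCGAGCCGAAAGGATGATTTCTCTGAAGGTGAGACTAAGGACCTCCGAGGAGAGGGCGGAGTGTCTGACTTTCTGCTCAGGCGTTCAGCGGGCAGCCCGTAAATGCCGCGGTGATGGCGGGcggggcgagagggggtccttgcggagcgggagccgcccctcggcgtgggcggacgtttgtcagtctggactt
Across the 80 libraries, after removing the means of the 16 sets, log2 CPM of these neighbours correlated at r = 0.89. That value was not particular to the pair. Acadm and Etfdh, on another chromosome, correlated with Hadha at 0.91 and 0.90 and with Hadhb at 0.93 and 0.93. Here as below, such r values describe the same 80 libraries, which share depth and RNA quality, and carry no test.

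Most of the 34 genes went up and down together between libraries of the same set. Over the 561 pairs of members the median r within sets was 0.371, beside -0.00247 over pairs of all genes tested, and single pairs ran from -0.58 to 0.93. The highest pair was Acadm with Hadhb (0.93). Acadl and Hadha had the highest median r with the other members, at 0.68 each, followed by Hadh, Decr1 and Crat at 0.68, 0.67 and 0.66. Acot13, Acad10, Cpt1b, Ppard and Ppara stood outside this pattern, with medians of -0.10, -0.05, -0.00, 0.00 and 0.05. Acot13 correlated with Hsd17b10 at 0.76 and with Acsl1 at -0.58.

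Ppara, at chr15:85618656-85687067 on the plus strand of GRCm39, varied more between libraries than any other of the 34 genes. Its SD of log2 CPM within sets was 0.82, above 97.6% of the genes tested, against 0.56 for Cpt1b, 0.44 for Etfb, 0.33 for Acad10 and 0.32 for Ppargc1a. The smallest SD among the members was that of Acaa1a, at 0.11. In libraries titled 1-20 the values of Ppara fell into low and high ones inside a group. In the 5 male sham libraries of that run Ppara was 6.64, 4.99, 7.92, 6.91 and 45.4 CPM, and in the 5 male gamma libraries it was 36.6, 39, 7.20, 8.57 and 47.0 CPM. Female sham libraries of the run had 7.11, 28.4, 5.60, 37.1 and 39.7 CPM. The 5 male Western diet libraries of the run, at 32.3, 34.6, 34.5, 41.0 and 39.9 CPM, and the 5 female mixed field ones, at 28.9 to 36.7 CPM, held high values only.

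**Figure D2:**
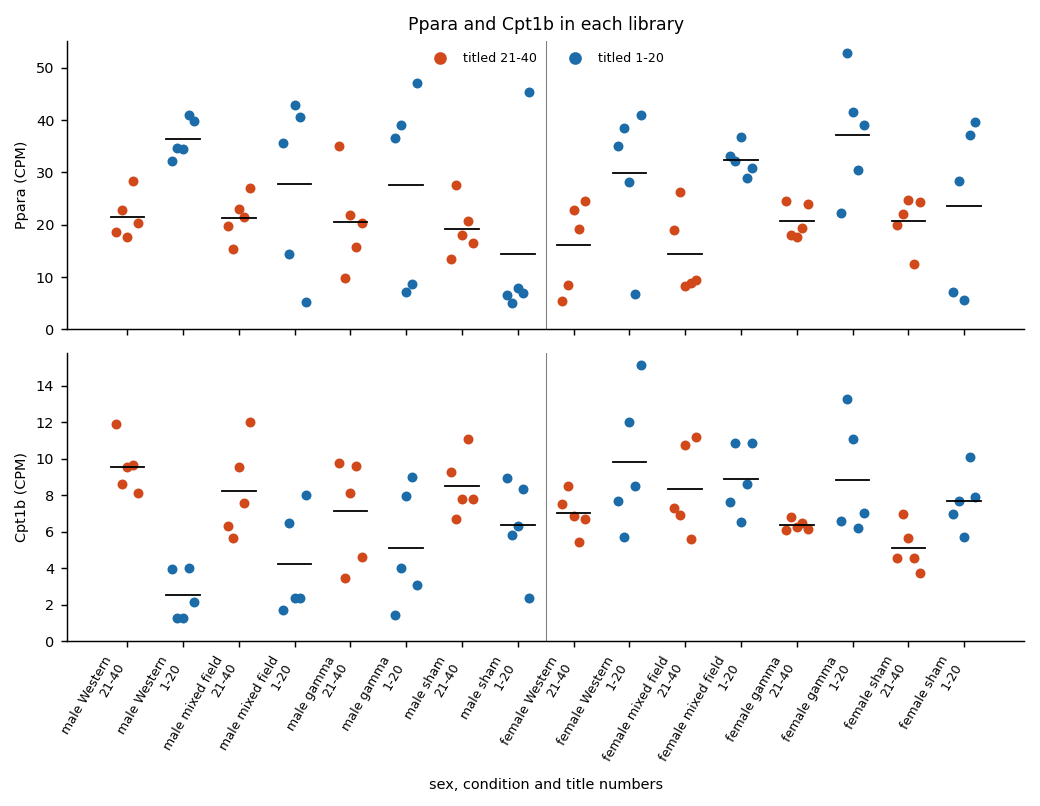
CPM of Ppara (upper panel) and Cpt1b (lower panel) in each library (points) with the mean of its set of 5 (black line), by sex and condition, titles 21-40 in red left of titles 1-20 in blue. Ppara splits into low and high values among blue points, as in male sham with 4 libraries from 4.99 to 7.92 CPM and 1 at 45.4 CPM; Cpt1b is lowest in male libraries titled 1-20, at a median of 3.97 CPM.

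Among the genes most like Ppara over the 80 libraries within sets were Nt5c1a (r = 0.94), Mfsd4a (0.92), Pdpr (0.92) and Tnrc6b (0.92). Ppargc1a was the member nearest to it, at 0.69, and Acaa1a the farthest, at -0.51. Of all genes tested, 1644 (10.4%) had r of at least 0.5 with Ppara and 1055 (6.64%) had r of -0.5 or less. The change of a gene per unit of Ppara went with the GC content of its exons (Spearman rho across 15813 genes of -0.41) and with their length (0.37). Whether transcript length, GC content or RNA quality has a part in the spread of Ppara was not tested.

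None of the 34 genes was called for a treatment against sham over both title runs, in males, in females or in the mean of the sexes. A call is an adjusted p under 0.05 by edgeR's quasi-likelihood test with Benjamini-Hochberg adjustment over the 15879 genes tested. For the Western diet the background of calls was 0.397% of genes in males, 0.0189% in females and 0% for the mean of the sexes. For the mixed field it was 0.0693% in males, 0% in females and 0% for the mean. For gamma radiation it was 0.176% in males, 0% in females and 0% for the mean. The DESeq2 Wald test and limma voom called 0 members in each of these 9 comparisons as well. At an unadjusted p under 0.05, edgeR counted 1, 0 and 3 members for the Western diet in males, females and the mean, 1, 4 and 5 for the mixed field, and 1, 2 and 3 for gamma radiation. Of the 15879 genes tested, 2034, 1174 and 1806 passed that limit for the Western diet, 1297, 1027 and 905 for the mixed field and 863, 1643 and 1732 for gamma radiation.

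On the Western diet the median log2 change of the 34 genes was -0.08 in males, -0.08 in females and -0.07 for the mean of the sexes, beside -0.01, 0.00 and -0.01 over all genes tested. Of the 34, 28 were negative in males, 28 in females and 27 for the mean. Over all genes tested 48.7%, 51.0% and 48.0% were positive. The members vary together between libraries, so their signs here and below are not independent and carry no test. Crat had the smallest p of the mean comparison. It ran from 367 to 578 CPM with a median of 533 CPM in male Western diet libraries, against 398 to 697 CPM with a median of 558 CPM in male sham libraries. In females it ran from 397 to 666 CPM with a median of 520 CPM on the Western diet, against 486 to 666 CPM with a median of 569 CPM in sham. The groups overlapped in both sexes, and the mean log2 change of -0.16 ± 0.06 (SE) had an adjusted p of 0.296 by edgeR. The next smallest p values for the mean were those of Hsd17b4 (-0.12 ± 0.05), Pex11a (-0.16 ± 0.07) and Cpt2 (-0.12 ± 0.06).

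Ppara had the smallest p of the Western diet in males. It ran from 17.7 to 41.0 CPM with a median of 30.3 CPM in male Western diet libraries, against 4.99 to 45.4 CPM with a median of 15 CPM in male sham libraries, so the groups overlapped. The log2 change was 0.79 ± 0.35 with an adjusted p of 0.326 by edgeR. The low values among male sham libraries were the 4 of titles 1-20 given above. In females Crat (-0.16 ± 0.08), Echs1 (-0.12 ± 0.07), Pex11a (-0.16 ± 0.10) and Hsd17b4 (-0.11 ± 0.08) had the smallest p on the Western diet, with adjusted p of at least 0.678. In males Crat (-0.15 ± 0.08), Hsd17b4 (-0.13 ± 0.08) and Ppard (-0.12 ± 0.07) followed Ppara.

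Under the mixed field the median log2 change of the members was -0.05 in males, -0.11 in females and -0.08 for the mean, with 22, 26 and 25 of 34 negative. All genes tested had medians of 0.01, 0.01 and 0.01, and 52.1%, 51.5% and 53.6% of them were positive. Without the libraries over 10 CPM of Myl7 the male median was 0.07. Hadha had the smallest p for the mean of the sexes. It ran from 1069 to 1797 CPM with a median of 1651 CPM in male mixed field libraries, against 1158 to 2194 CPM with a median of 1728 CPM in male sham libraries. In females it ran from 807 to 1838 CPM with a median of 1515 CPM under the mixed field, against 1285 to 2026 CPM with a median of 1760 CPM in sham. The groups overlapped in both sexes, and the log2 change was -0.18 ± 0.08 with an adjusted p of 0.803 by edgeR. Etfdh (-0.17 ± 0.08), Decr1 (-0.14 ± 0.07) and Pex11a (-0.15 ± 0.07) came next. In females the smallest p values belonged to Etfdh (-0.25 ± 0.11), Etfa (-0.20 ± 0.09), Decr1 (-0.21 ± 0.10) and Hadhb (-0.23 ± 0.11), all with an adjusted p of 0.763. In males they belonged to Ppard (-0.16 ± 0.07), Ppargc1a (0.30 ± 0.15), Pex11a (-0.19 ± 0.10) and Slc25a20 (-0.15 ± 0.09).

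After gamma radiation the median log2 change of the members was -0.10 in males, -0.03 in females and -0.06 for the mean, with 31, 22 and 30 of 34 negative. Over all genes tested the medians were 0.00, -0.00 and -0.00, with 51.0%, 49.2% and 49.8% positive. Pex11a had the smallest p in males. It ran from 12.1 to 25.3 CPM with a median of 23.6 CPM in male gamma libraries, against 20.4 to 31.1 CPM with a median of 26.5 CPM in male sham libraries. The groups overlapped, and the log2 change was -0.26 ± 0.10, with an adjusted p of 0.681 by edgeR, followed by Eci2 (-0.15 ± 0.08), Slc25a20 (-0.16 ± 0.09) and Crat (-0.13 ± 0.08). Etfb had the smallest p in females, at 2.29 to 9.05 CPM with a median of 3.78 CPM in gamma libraries, against 3.66 to 10.2 CPM with a median of 5.60 CPM in sham libraries. Its log2 change was -0.48 ± 0.20 with an adjusted p of 0.414. Ppargc1a in females ran from 57.4 to 153 CPM with a median of 62.6 CPM after gamma radiation, against 34.9 to 83.6 CPM with a median of 60.3 CPM in sham, a log2 change of 0.32 ± 0.15 with an adjusted p of 0.457. Its highest value, 153 CPM, came from gamma replicate 2, and the female groups overlapped for Etfb and for Ppargc1a. Acaa1a (-0.12 ± 0.07) and Hsd17b10 (-0.15 ± 0.09) followed in females, and Etfb (-0.32 ± 0.14), Ppargc1a (0.22 ± 0.11), Eci2 (-0.11 ± 0.06) and Eci1 (-0.13 ± 0.07) led the mean of the sexes.

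The precision of these comparisons bounds what the members could have done. The median SE of a member was 0.10 on the log2 scale within a sex and 0.07 for the mean of the sexes. The 95% interval of the change lay within ±0.5 log2 for 33, 33 and 32 of the 34 genes for the Western diet, the mixed field and gamma radiation in the mean of the sexes, and for 30 to 32 of them within a sex. The exceptions in the mean of the sexes were Ppara, with intervals from -0.07 to 0.92, -0.18 to 0.81 and -0.03 to 0.95 in the same order, and Etfb after gamma radiation, from -0.60 to -0.04. Within a sex Cpt1b, Acad10 and Ppargc1a also reached past 0.5 log2 in at least 1 comparison.

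**Figure D3:**
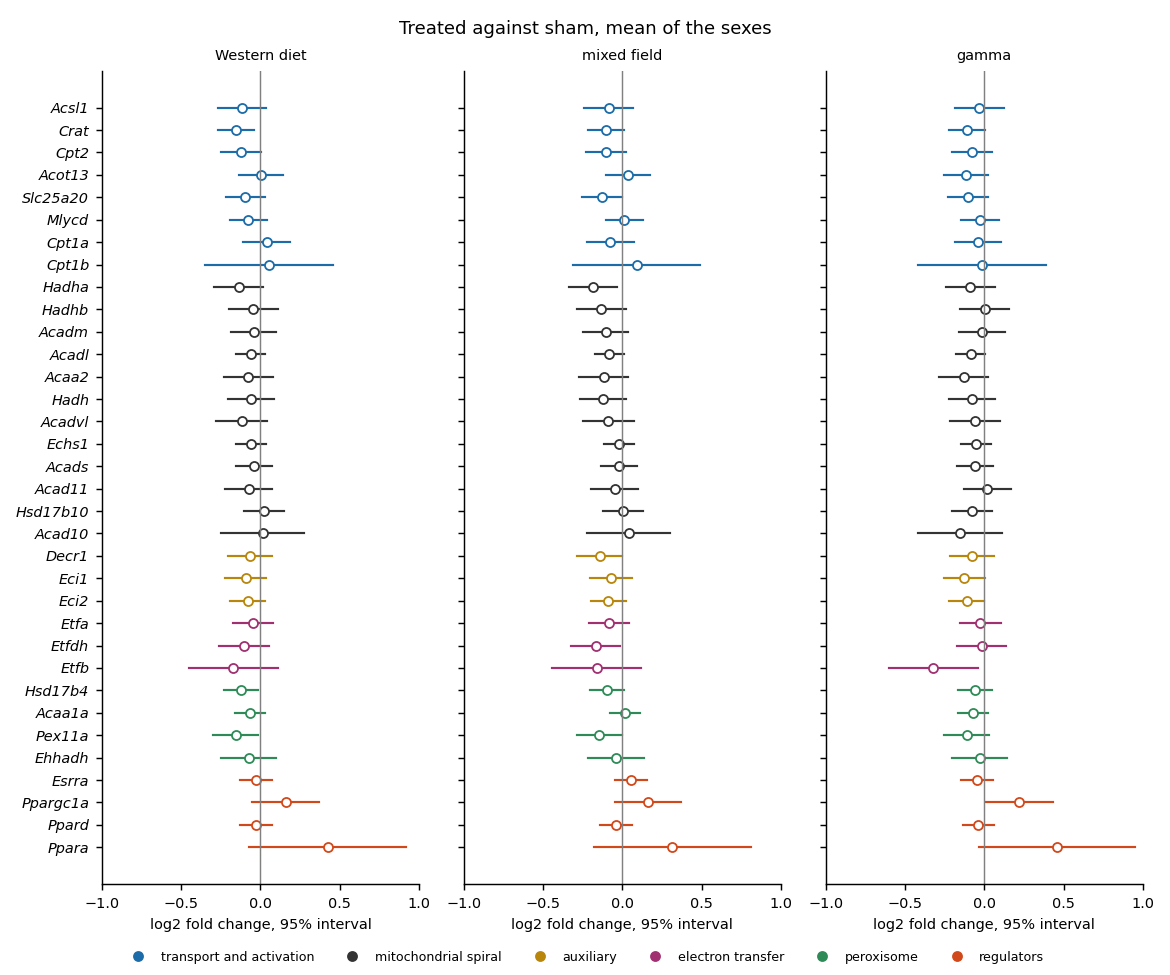
Log2 fold change of the 34 genes with 95% intervals for each treatment against sham, mean of the sexes, coloured by role; open circles are not called. All circles are open. Of the 34 points 27, 25 and 30 lie below 0, and Ppara has the widest interval. The genes vary together between libraries, so their signs are not independent.

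The effects of treatments were also compared between the sexes and between radiation types, and 0 of the 34 members were called in each by edgeR, DESeq2 and limma voom. The background of the male minus female difference was 0.447% of genes for the Western diet, 0.0315% for the mixed field and 0% for gamma radiation. Mixed field against gamma radiation called 0.0189% of genes. At an unadjusted p under 0.05 there were 0, 2, 1 and 2 members in these 4 comparisons, and 1468, 1429, 854 and 1649 of all genes tested. Ppard had the smallest p of the sex difference for the Western diet (-0.19 ± 0.10), before Cpt1a (0.26 ± 0.15), Cpt1b (-0.69 ± 0.40) and Ppara (0.73 ± 0.50). It also led for the mixed field (-0.24 ± 0.10), before Echs1 (0.19 ± 0.09), Etfa (0.23 ± 0.13) and Cpt1b (-0.69 ± 0.40). Pex11a led for gamma radiation (-0.29 ± 0.14, adjusted p of 0.923), before Ppard (-0.15 ± 0.10), Cpt1b (-0.53 ± 0.40) and Ehhadh (-0.23 ± 0.18). For the mixed field against gamma radiation, Acot13 (0.15 ± 0.07), Esrra (0.10 ± 0.05), Etfdh (-0.15 ± 0.08) and Acaa1a (0.09 ± 0.05) had the smallest p, with adjusted p of at least 0.455.

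Many of the 34 genes differed between the title runs in males and in the mean of the sexes. In males 18 of the 34 were lower and 2 higher in libraries titled 21-40 than in those titled 1-20 (20 libraries each), where 29.8% of all genes were called. In females 8 were lower and 1 higher, where 24% of all genes were called. For the mean of the sexes 15 were lower and 2 higher, with a background of 30.7%. The share of members called in males was 58.8%. In females the share was 26.5%, near the background of 24%. The median log2 difference of the members was -0.15 in males and -0.07 in females, beside -0.00 and 0.01 over all genes tested.

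In males 8 of the 12 enzymes of the mitochondrial cycle were called lower and 1 higher in the later titles. Hadh ran from 337 to 592 CPM with a median of 539 CPM in male libraries titled 21-40, against 365 to 731 CPM with a median of 639 CPM in those titled 1-20, a log2 difference of -0.29 ± 0.06 with an adjusted p of 0.000230 by edgeR. Acads ran from 163 to 273 CPM with a median of 225 CPM in titles 21-40, against 226 to 344 CPM with a median of 263 CPM in titles 1-20 (-0.26 ± 0.05, adjusted p of 1.84e-05). The runs overlapped in both genes. Acadvl (-0.28 ± 0.08), Hadhb (-0.26 ± 0.07), Acaa2 (-0.24 ± 0.07), Acadm (-0.21 ± 0.07), Acadl (-0.15 ± 0.04) and Echs1 (-0.14 ± 0.04) were also called lower. Hadha, at -0.15 ± 0.07, was not called.

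Genes of other roles were also called lower in males. The 3 auxiliary enzymes were called lower, with Decr1 at -0.24 ± 0.06, Eci1 at -0.16 ± 0.06 and Eci2 at -0.15 ± 0.05. Of the electron transfer genes, Etfdh (-0.23 ± 0.07) and Etfa (-0.21 ± 0.06) were lower. Of the transport genes, Slc25a20 (-0.22 ± 0.06), Mlycd (-0.22 ± 0.05), Cpt2 (-0.21 ± 0.06) and Crat (-0.16 ± 0.05) were lower. Esrra was the only regulator called in males (-0.19 ± 0.04, adjusted p of 0.000721), at 129 to 200 CPM with a median of 173 CPM in titles 21-40, against 154 to 268 CPM with a median of 192 CPM in titles 1-20. Among the 4 peroxisomal genes Pex11a had the smallest p in males, at -0.15 ± 0.07 with an adjusted p of 0.0945, and was not called.

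Cpt1b and Acad10 were higher in the later titles in males. Cpt1b ran from 3.48 to 12 CPM with a median of 8.38 CPM in male libraries titled 21-40, against 1.26 to 9.0 CPM with a median of 3.97 CPM in those titled 1-20. The log2 difference was 0.95 ± 0.17 with an adjusted p of 7.55e-06 by edgeR. Acad10 ran from 7.57 to 16.4 CPM with a median of 10.9 CPM in titles 21-40, against 3.28 to 10.6 CPM with a median of 5.98 CPM in titles 1-20 (0.76 ± 0.10, adjusted p of 3.31e-08). The runs overlapped in both. The share of counts from Rn18s-rs5, a ribosomal RNA gene, moved in the same libraries, at 1.95% ± 0.615 in male titles 21-40, against 0.838% ± 0.794 in male titles 1-20. With that share as a further term the male count was 4 called members, and Cpt1b had a log2 difference of 0.42 with an adjusted p of 0.0882. Some of the other members that lost their call kept nearly the same value, as did Acadvl (-0.27), Cpt2 (-0.21), Slc25a20 (-0.21) and Crat (-0.16). Others had smaller values, among them Acadm (-0.15), Hadhb (-0.18) and Etfa (-0.15). The male call of Eci1 was lost without any 1 of 3 libraries.

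In females other genes led. Ppara ran from 5.42 to 26.3 CPM with a median of 19.2 CPM in female libraries titled 21-40, against 5.60 to 52.8 CPM with a median of 32.7 CPM in those titled 1-20, a log2 difference of -0.77 ± 0.23 with an adjusted p of 0.00983 by edgeR. Ppargc1a ran from 34.9 to 83.6 CPM with a median of 59.8 CPM in titles 21-40, against 40.9 to 153 CPM with a median of 72.6 CPM in titles 1-20 (-0.33 ± 0.10, adjusted p of 0.00935). Both regulators overlapped between the runs. Across 15814 genes the female difference went with exon GC content (Spearman rho of 0.33) and exon length (-0.25), against 0.04 and -0.05 in males. Over the 34 members these values in females were 0.50 for GC content and -0.06 for length. The part of GC content and length was not tested. Cpt1a (-0.23 ± 0.07), Ehhadh (-0.30 ± 0.08), Etfdh (-0.24 ± 0.07), Hadhb (-0.20 ± 0.07), Acad11 (-0.20 ± 0.07) and Decr1 (-0.16 ± 0.06) were called lower too. The call of Decr1 was lost without any 1 of 16 libraries, that of Acad11 without any 1 of 4 and that of Hadhb without Western diet replicate 6. With the Rn18s-rs5 share as a further term the female calls of Ehhadh (-0.12, adjusted p of 0.423), Acad11 (adjusted p of 0.117) and Cpt1a (0.0562) were lost, and without the filter on low counts that of Decr1 (0.0823). Acaa1a was the only member called higher in females. It ran from 83.1 to 117 CPM with a median of 100 CPM in titles 21-40, against 72.4 to 99.2 CPM with a median of 82.4 CPM in titles 1-20 (0.26 ± 0.04, adjusted p of 1.00e-07).

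For the mean of the sexes Acad10 (0.45 ± 0.07) and Acaa1a (0.13 ± 0.03) were higher, and the largest falls were those of Ppara (-0.53 ± 0.16), Etfdh (-0.24 ± 0.05), Hadhb (-0.23 ± 0.05), Decr1 (-0.20 ± 0.04), Ehhadh (-0.19 ± 0.06), Hadh (-0.18 ± 0.04), Acadm (-0.17 ± 0.05), Acadvl (-0.17 ± 0.05), Hadha (-0.17 ± 0.05) and Etfa (-0.15 ± 0.04). Acadl, Acads, Acsl1, Echs1 and Eci2 were the remaining members called lower. The call of Acadl was lost without any 1 of 24 libraries. By limma voom the difference of Ppara was -0.33 with an adjusted p of 0.132, and was not called. Without the filter on low counts Acadl, Acads, Echs1 and Eci2 were not called, with adjusted p from 0.0704 to 0.238.

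**Figure D4:**
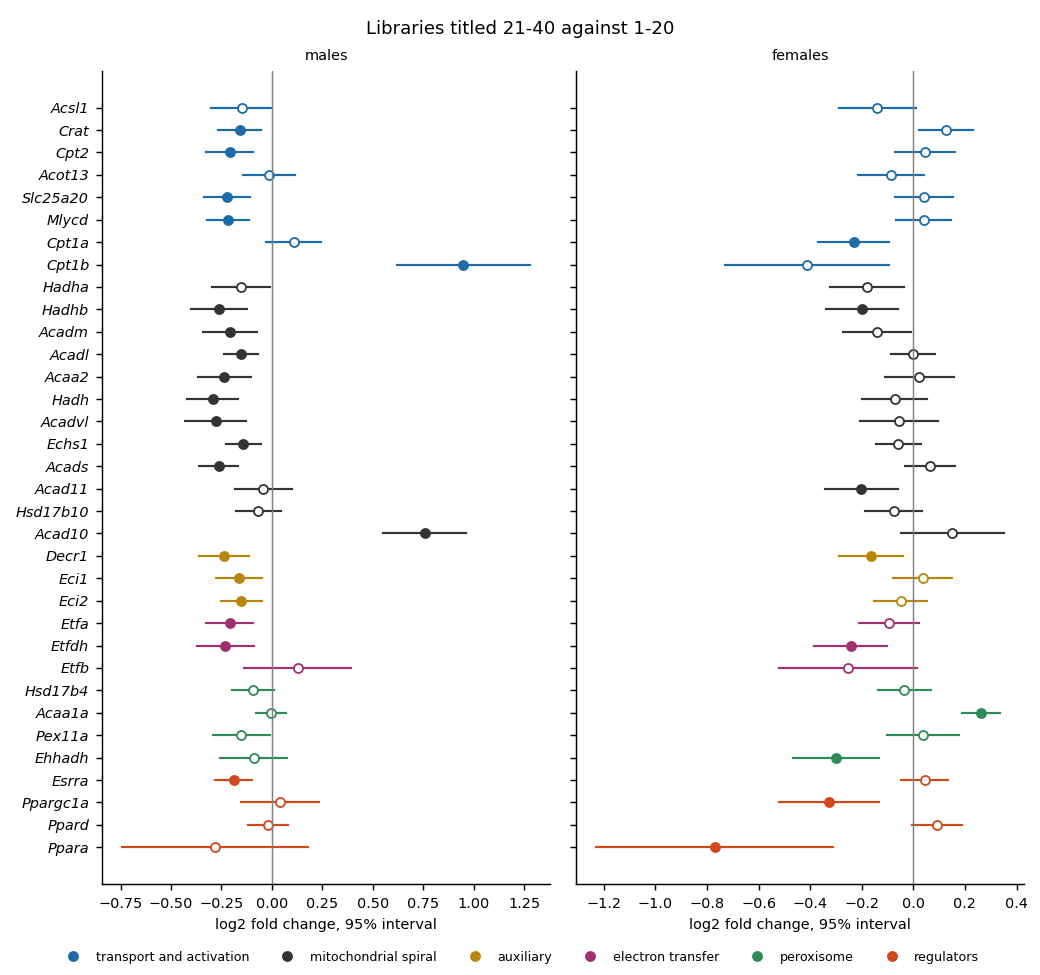
Log2 fold change of the 34 genes with 95% intervals between libraries titled 21-40 and those titled 1-20, in males (left) and females (right), coloured by role; filled circles are called. In males 18 filled circles lie below 0 and Cpt1b and Acad10 above it, at 0.95 and 0.76; in females 8 lie below and Acaa1a, at 0.26, above.

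The difference between the runs itself differed between the sexes for 12 of the 34 members, 4 higher and 8 lower in the male minus female difference, with 26.9% of all genes called. Cpt1b had the largest, at 1.36 ± 0.23 (adjusted p of 6.59e-06 by edgeR), and Acad10 (0.61 ± 0.14), Ppargc1a (0.37 ± 0.14) and Cpt1a (0.34 ± 0.10) also had positive ones. Acads (-0.33 ± 0.07), Crat (-0.29 ± 0.07), Acaa1a (-0.27 ± 0.05), Slc25a20 (-0.26 ± 0.08), Acaa2 (-0.26 ± 0.09), Mlycd (-0.26 ± 0.08), Cpt2 (-0.25 ± 0.08) and Esrra (-0.23 ± 0.06) had negative ones. The call of Ppargc1a was lost without any 1 of 14 libraries and that of Acaa2 without any 1 of 7. With the Rn18s-rs5 share as a further term 1 member was called, and Acad10 had a value of -0.02 and Cpt1b of 0.11 (adjusted p of 0.846). Acads (-0.17) and Mlycd (-0.20) were also smaller. Cpt2 (-0.25), Crat (-0.29) and Cpt1a (0.33) kept nearly the same value and Ppargc1a (0.48) had a larger one, but none of these was called. The Rn18s-rs5 share was 0.530% ± 0.115 in female titles 21-40, against 2.95% ± 1.5 in female titles 1-20, the opposite order to males.

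Other transcripts differed between the runs beside the members. The atrial markers had 4 of 6 called lower and 1 higher in male libraries titled 21-40, with a summed level of 12.1 to 2091 CPM and a median of 15.8 CPM, against 14.4 to 1102 CPM and a median of 187 CPM in titles 1-20. In female libraries the sum ran from 11.1 to 31.5 CPM in titles 21-40, against 6.98 to 42.8 CPM in titles 1-20. Fibroblast markers had 5 of 7 called lower in males, with a summed level of 480 to 944 CPM in titles 21-40, against 713 to 1559 CPM in titles 1-20. Adipocyte markers had 3 of 5 called lower in males, with a median log2 difference of -1.57, and a summed level of 397 to 772 CPM in titles 21-40, against 408 to 756 CPM in titles 1-20. Smooth muscle markers had 2 of 3 called lower, at 90.9 to 184 CPM in titles 21-40, against 95.7 to 317 CPM in titles 1-20. Called higher in male titles 21-40 were 3 of 8 endothelial, 3 of 4 neutrophil, 2 of 4 B cell and 1 of 6 erythroid markers, and 1 of 3 Schwann cell markers was called lower. In females 2 of 3 smooth muscle, 1 of 8 endothelial, 1 of 7 fibroblast and 1 of 4 skeletal muscle markers were called higher, 1 of 9 macrophage markers lower and 0 of 5 adipocyte markers in either direction. Of the 10 cardiomyocyte markers, 1 was called higher and 2 lower in each sex, and their summed level averaged 70149 ± 5444 CPM in male titles 21-40, against 67999 ± 5842 CPM in male titles 1-20. The clock gene Dbp averaged 117 ± 31.7 CPM in female titles 21-40, against 69.7 ± 36.3 CPM in female titles 1-20, and 92.3 ± 33 CPM in male titles 21-40, against 114 ± 26.7 CPM in male titles 1-20. Of 19 clock genes tested, 4 were called higher and 4 lower in male titles 21-40, and 9 higher and 3 lower in female titles 21-40. The part of these transcripts in the members' differences was not tested.

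Treatments were then compared with sham inside each run, averaged over the sexes. The Western diet called 1 member, Crat, within titles 1-20, where 6.53% of all genes were called. Crat was 536 ± 47.6 CPM in male Western diet libraries of that run, against 626 ± 55 CPM in male sham ones, and 485 ± 62.5 CPM in female Western diet libraries, against 580 ± 52.7 CPM in female sham ones (n = 5 each). The log2 change was -0.24 ± 0.07 with an adjusted p of 0.0373 by edgeR. The call was lost without any 1 of 12 of the 20 libraries compared, with an adjusted p of up to 0.0964 (without male Western diet replicate 2), and without female gamma replicate 7 (0.0501) or female mixed field replicate 10. Leaving out 1 library moved the number of called members to between 0 and 5, the highest without female Western diet replicate 4. Hsd17b4 (-0.22 ± 0.07), Pex11a (-0.26 ± 0.10) and Ppara (0.85 ± 0.33) followed, with adjusted p of 0.0513, 0.0957 and 0.0958. Ppara was called here by limma voom (adjusted p of 0.0204) and without the filter on low counts (adjusted p of 0.0146), higher on the Western diet in both. Crat was not called without that filter (adjusted p of 0.0725) or with the Rn18s-rs5 share as a further term (0.0883). Within titles 21-40 no member was called, with 0% of genes, and Cpt1b (0.32 ± 0.23), Crat (-0.07 ± 0.07), Eci2 (-0.06 ± 0.07) and Esrra (0.05 ± 0.06) had the smallest p. The difference of the Western diet effect between the runs had no called member and 0% of genes called, with the smallest p for Cpt1b (0.80 ± 0.33), Ppara (-0.95 ± 0.46), Hsd17b4 (0.20 ± 0.10) and Ppargc1a (-0.38 ± 0.19).

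Under the mixed field in titles 1-20, 29 of the 34 members had negative log2 changes, with a median of -0.15, and 17 had an unadjusted p under 0.05, as did 2241 of the 15879 genes tested. Of all genes tested 50.4% were positive, and the members vary together, so these counts are not of independent genes. By edgeR 0 of the 34 were called, with 0.145% of genes. DESeq2 called 1, Acaa2, and limma voom 0. Leaving out replicate 1 or 5 of the male mixed field gave 2 and 1 called members, and leaving out male sham replicate 5 gave 2. Acaa2 was 913 ± 220 CPM in male mixed field libraries of the run, against 1036 ± 64.1 CPM in male sham ones, and 682 ± 42.1 CPM in female mixed field libraries, against 965 ± 101 CPM in female sham ones. In these female libraries Acaa2 ran from 621 to 738 CPM under the mixed field, against 824 to 1089 CPM in sham. Acaa2 was named for its small p, and how many other genes had sets apart in this way was not counted. The log2 change was -0.34 ± 0.09 with an adjusted p of 0.0727 by edgeR, and Eci1 (-0.27 ± 0.08), Slc25a20 (-0.26 ± 0.08) and Decr1 (-0.28 ± 0.09) followed. Within titles 21-40 no member was called, with 0.0126% of genes, and the median was 0.03. Hsd17b10 (0.16 ± 0.08), Esrra (0.11 ± 0.06), Mlycd (0.12 ± 0.08) and Cpt1b (0.33 ± 0.23) had the smallest p there. Acaa2 was 992 ± 44.5 CPM in female mixed field libraries of titles 21-40, against 849 ± 148 CPM in female sham ones. The difference between the runs had 0 called members and 1.27% of genes called. Its smallest p were those of Eci1 (0.39 ± 0.12, adjusted p of 0.0673), Acaa2 (0.44 ± 0.13), Hsd17b10 (0.33 ± 0.11) and Hadh (0.33 ± 0.13), and 10 members had an unadjusted p under 0.05, as did 2509 of all genes tested. Without male mixed field replicate 1 that difference had 2 called members and without female sham replicate 8 it had 1.

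Gamma radiation had no called member within titles 1-20, with 0.0126% of genes, within titles 21-40, with 0.0441%, or in their difference, with 0%. At an unadjusted p under 0.05 edgeR counted 6, 0 and 0 members and 2197, 726 and 673 of all genes tested, and DESeq2 and limma voom called 0 in each. Without male sham replicate 5, 1 member was called within titles 1-20. There Ppargc1a (0.40 ± 0.14) and Ppara (0.81 ± 0.33) had the smallest p, with adjusted p of 0.197 and 0.263, followed by Acadl (-0.14 ± 0.06) and Slc25a20 (-0.18 ± 0.08). Within titles 21-40 the smallest p belonged to Acot13 (-0.17 ± 0.09), Etfb (-0.31 ± 0.19), Acaa2 (-0.13 ± 0.09) and Eci1 (-0.11 ± 0.08), and in the difference between the runs to Ppargc1a (-0.38 ± 0.19), Hsd17b4 (0.20 ± 0.10), Ppara (-0.76 ± 0.46) and Slc25a20 (0.17 ± 0.11). For the Western diet within titles 21-40 the unadjusted count was 0 members and 413 of all genes, for its difference between the runs 2 and 2008, and for the mixed field within titles 21-40 it was 1 and 1432, while DESeq2 and limma voom called 0 members in these and in the mixed field difference.

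Males and females differed in 4 members over the 4 conditions, 1 higher and 3 lower in males, with 23.3% of all genes called, so the share of members called, 11.8%, was below the background. Acad10 ran from 3.28 to 16.4 CPM with a median of 9.70 CPM in males, against 8.58 to 17.7 CPM with a median of 10.9 CPM in females (n = 40 each), a log2 difference of -0.33 ± 0.09 with an adjusted p of 0.00698 by edgeR. Acaa1a ran from 71.0 to 102 CPM with a median of 84.3 CPM in males, against 72.4 to 117 CPM with a median of 89.8 CPM in females (-0.12 ± 0.03, adjusted p of 0.00881). Acadl (0.10 ± 0.03) was higher in males and Cpt2 (-0.12 ± 0.05) lower. The sexes overlapped in these genes. Without the 20 libraries over 10 CPM of Myl7, 0 of the 4 remained called, and Acad10 was at -0.10. With a title-run term for each sex, the value is the male-female difference at titles 1-20 rather than over both runs. In that fit 9 members were called and Acaa1a was at 0.02. The call of Cpt2 was lost without any 1 of 17 libraries, and 7 members were called without male gamma replicate 10. Atrial markers were higher in males for 6 of 6, with a median log2 difference of 3.80, adipocyte markers for 4 of 5 (1.49) and smooth muscle markers for 3 of 3 (0.66). Of 4 skeletal muscle markers, 2 were lower in males (-0.40), as were 2 of 7 fibroblast markers (-0.01). The part of these markers in the members' differences was not tested.

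Slopes of the members on each regulator were fitted within the 16 sets, with 33 genes beside the regulator. A slope is the log2 change of a gene per log2 unit of the regulator, and it describes libraries that share depth and RNA quality. On Esrra 13 members had positive slopes that were called and 0 had negative ones, with 16.7% of all genes called. Mlycd had the smallest p, at 0.85 ± 0.11 (adjusted p of 2.13e-07 by edgeR). The other called slopes were those of Eci1 (0.75 ± 0.14), Hsd17b10 (0.66 ± 0.14), Eci2 (0.65 ± 0.13), Acaa2 (0.62 ± 0.18), Pex11a (0.57 ± 0.19), Slc25a20 (0.55 ± 0.15), Echs1 (0.50 ± 0.11), Etfa (0.48 ± 0.16), Acadl (0.47 ± 0.11), Acads (0.40 ± 0.13), Acaa1a (0.36 ± 0.10) and Etfb, which was steepest at 1.36 ± 0.35. Of all genes tested with a called slope on Esrra, 1523 were positive and 1123 negative. Without male gamma replicate 10 the count was 8 called members, and Acaa2, Slc25a20, Etfa and Pex11a were among those no longer called. Without the 20 libraries over 10 CPM of Myl7 it was 9, and Acads (0.36, adjusted p of 0.0873), Acaa2 (0.42, 0.0963), Etfa (0.44, 0.130) and Pex11a (0.33, 0.322) were not called. Without the filter on low counts Acads and Acaa1a were not called, with adjusted p of 0.0697 and 0.0759.

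On Ppara 7 members had positive and 6 negative called slopes, with 44.2% of all genes called, and the share of members called was 39.4%. Ppargc1a was steepest (0.28 ± 0.04, adjusted p of 1.70e-09), and Cpt1a (0.15 ± 0.03), Acsl1 (0.14 ± 0.03), Acad11 (0.13 ± 0.03), Acadvl (0.10 ± 0.04), Etfdh (0.10 ± 0.03) and Hadhb (0.09 ± 0.03) were positive. Etfb (-0.21 ± 0.06), Cpt1b (-0.20 ± 0.08), Acad10 (-0.17 ± 0.05), Hsd17b10 (-0.07 ± 0.03), Acot13 (-0.07 ± 0.03) and Acaa1a (-0.07 ± 0.02) were negative. The call of Acot13 was lost without any 1 of 43 libraries, that of Cpt1b without any 1 of 10 and that of Hsd17b10 without any 1 of 5. Without the 20 libraries over 10 CPM of Myl7, Acad10 had a slope of -0.06 (adjusted p of 0.309) and Cpt1b one of -0.02 (0.850), and neither was called. By limma voom Cpt1b was at -0.12 with an adjusted p of 0.201. Acot13 was not called with the DESeq2 size factors or the DESeq2 Wald test (adjusted p of 0.0610 and 0.0547).

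On Ppargc1a 12 members had positive and 3 negative called slopes, with 39.8% of all genes called. Ppara (1.68 ± 0.23), Acsl1 (0.41 ± 0.08), Acad11 (0.36 ± 0.08), Ehhadh (0.33 ± 0.09), Cpt1a (0.32 ± 0.08), Etfdh (0.31 ± 0.08), Acadvl (0.30 ± 0.09), Hadhb (0.28 ± 0.08), Acadm (0.23 ± 0.08), Etfa (0.22 ± 0.07), Decr1 (0.18 ± 0.07) and Echs1 (0.13 ± 0.05) were positive, and Etfb (-0.49 ± 0.15), Acaa1a (-0.15 ± 0.04) and Ppard (-0.14 ± 0.06) negative. With Ppara as a further term, and Ppara itself no longer counted, 0 members were called. In that fit the slopes of Acadm (0.26), Etfa (0.27), Echs1 (0.20) and Ehhadh (0.37) were no smaller, and that of Decr1 (0.18) was about the same. Those of the other members called before were smaller, among them Cpt1a (0.13), Etfb (-0.22) and Acaa1a (-0.06). The call of Ppard was lost without any 1 of 23 libraries, with the DESeq2 size factors (adjusted p of 0.0613), with the DESeq2 Wald test (0.0609), with limma voom (0.0563), without the filter on low counts (0.127) and without the 20 libraries over 10 CPM of Myl7 (0.142). That of Decr1 was lost without any 1 of 15 libraries and that of Echs1 without any 1 of 3. Without the filter Decr1 (0.0793), Echs1 (0.151) and Acaa1a (0.0517) were not called, and without the Myl7 libraries Echs1 (0.0569) was not. On Ppard 0 members were called by edgeR, DESeq2 or limma voom, with 5.4% of all genes called and 2 members at an unadjusted p under 0.05, as were 3415 of all genes. Ppargc1a (-0.56 ± 0.26), Cpt1b (0.86 ± 0.42), Etfa (-0.27 ± 0.15) and Ppara (-1.09 ± 0.65) had the smallest p on Ppard. Of the 3 genes whose promoter windows held the near match to the PPAR element, 0 had called slopes on Ppara, with Echs1 at 0.02 ± 0.02, Etfa at 0.04 ± 0.03 and Slc25a20 at 0.02 ± 0.03. On Ppard 0 of the 3 were called, on Ppargc1a 2 and on Esrra 3. Of all genes, 44.2% were called on Ppara, 5.4% on Ppard, 39.8% on Ppargc1a and 16.7% on Esrra. Of the 33 members, 13 were called on Esrra. Across genes, slopes on Esrra went the other way from those on Ppara with exon GC content (Spearman rho of 0.29 on Esrra and -0.41 on Ppara over 15813 genes).

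**Figure D5:**
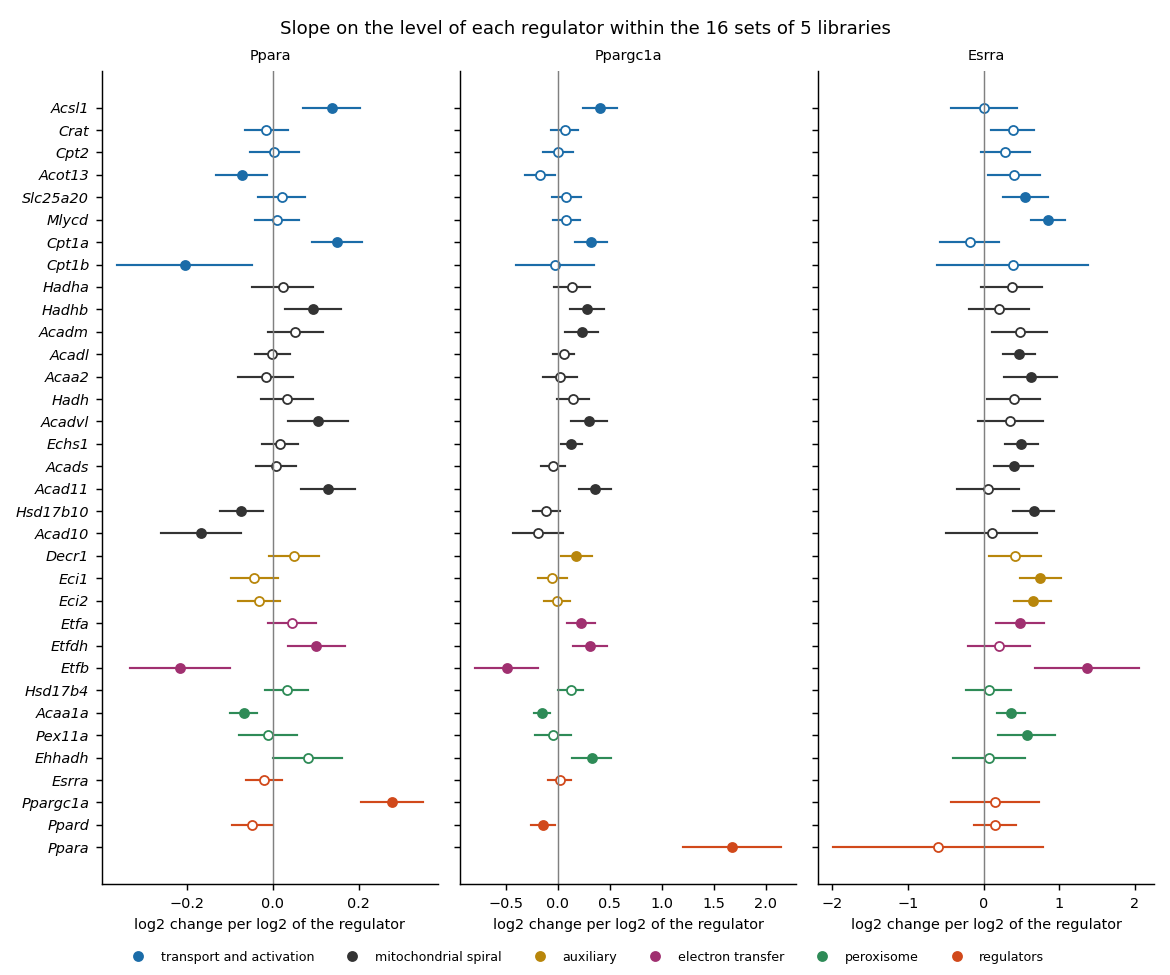
Slope of each gene (log2 change per log2 unit of the regulator, with 95% intervals) on Ppara, Ppargc1a and Esrra within the 16 sets of 5 libraries, coloured by role; filled circles are called and each panel has its own scale. On Esrra all 13 filled circles lie above 0, led by Etfb at 1.36 and Mlycd at 0.85; on Ppara 7 lie above and 6 below.

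Other genes of the pathway were counted from 4 lists. Of 14 tested PPAR targets of lipid handling, 30 further enzymes of fatty acid oxidation, 20 partners and coregulators and 19 clock genes, 0, 0, 0 and 0 were called for the mean of the sexes under the Western diet, the mixed field and gamma radiation by edgeR, the one tool run on these lists. At an unadjusted p under 0.05 the counts were 5, 3, 5 and 5 for the Western diet, 3, 1, 2 and 2 for the mixed field and 4, 1, 3 and 12 for gamma radiation. The PPAR targets of smallest p were Acot2 (-0.24 ± 0.08) for the Western diet and Vldlr (0.22 ± 0.08) for gamma radiation. Acot2 is a mitochondrial thioesterase and Vldlr a receptor that takes up lipoproteins. Between title runs in females 5 of the 14 PPAR targets were lower in titles 21-40 and 0 higher, among them Pdk4 (-0.84 ± 0.19), the kinase that shuts off pyruvate oxidation, Cd36 (-0.25 ± 0.06), a fatty acid transporter, Vldlr (-0.36 ± 0.07) and Angptl4 (-0.66 ± 0.19). In males 3 were lower and 1 higher. Of the 30 further oxidation enzymes, 13 were lower and 3 higher in male titles 21-40, and 4 lower and 4 higher in female ones. Over all genes tested 29.8% were called in males and 24% in females, and the 4 of 14 PPAR targets in males were near that background. Ppargc1b, the sister coactivator of Ppargc1a, was lower in female titles 21-40 (-0.58 ± 0.14), as was the corepressor Ncor1 (-0.39 ± 0.08).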

How the data were processed

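RNA for 80 libraries of left ventricular tissue was poly-A selected and sequenced as paired ends, per the labels' protocols. The deposited file holds raw counts per Ensembl gene. FastQC 0.11.9, STAR 2.7.8a and GRCm39 are named in the submitters' processing notes, while no source used here names how reads were assigned to genes, with or without regard to strand, or which annotation served. Gene positions, exon lengths and overlaps came from a GENCODE annotation of GRCm39, which held 56323 of the 56941 genes. Multi-gene reads may have been dropped or split, which touches Cpt1b and Etfb most.

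The counts were scaled by TMM and tested with the quasi-likelihood method of edgeR (version 4.0.16, under R 4.3.3) over the 15879 genes that passed its filter on low counts, with Benjamini-Hochberg adjustment and a threshold of 0.05. The genes tested held at least 99.8% of each library's counts. Treatments and sexes were compared in 1 fit of 8 groups, and title runs, treatments within runs and slopes in 1 fit of the 16 sets. SE is the log2 change divided by the square root of F. Scripts were tested on simulated counts. Alternatives were DESeq2 size factors, the DESeq2 Wald test (1.42.0), limma voom (3.58.1), no filter, a run term, an Rn18s-rs5 term, a Ppara term chosen after seeing the data, a replicate block and libraries left out. No pair of libraries within a group agreed within sampling noise (smallest chi-square per degree of freedom 1.61). The same title numbers in males and females did not pair libraries, since their deviations correlated at -0.24 to 0.21 with a median of -0.00.

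The members, roles and lists were chosen with earlier results of these data known. Named are the members called, where fewer than 5 are called also the 4 of smallest p, and up to 4 genes from each list. Proteins were not compared here. Depth limits the lowest members, and intervals cover the spread between libraries only. Some genes that the naming rule selects outside the 34 are not reported here.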

Additional observations from a re-analysis of the deposited data

Results flagged for a closer look

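A value was singled out where the highest or lowest library of a group of 10 stood apart from the other 9 by Dixon's 95% criterion. About 1 in 20 groups meets it where the values are independent draws from a single normal population. Of the 272 groups of libraries and genes, 35 met it. That number cannot be set against the rate, since each group holds both title runs and the genes vary together. Of the 35, 13 belonged to male gamma replicate 10, in which the CPM were lowest for Acadl (694), Acadm (724), Hadh (337), Hadha (1002), Acaa2 (473), Cpt2 (148), Slc25a20 (105), Decr1 (219), Etfdh (383), Crat (362), Mlycd (86.1), Pex11a (12.1) and Esrra (129). The same library had a T cell marker sum of 78.2 CPM and 80.4 CPM of Myl7, whose part was not tested.

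Female mixed field replicate 10 held 6, with the lowest CPM of its group for Acadvl (223), Hadha (807), Hadhb (791), Echs1 (225), Etfa (279) and Etfdh (223). Its B cell and erythroid marker sums were 16.7 and 1279 CPM, whose part was not tested. Female gamma replicate 7, the library without Xist, had the lowest CPM for Acadm (912), Hadh (407), Hadhb (1275) and Acaa2 (575). Male Western diet replicate 7 had the lowest CPM for Acadm (835), Hadha (1021) and Eci1 (148).

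Single libraries stood apart in 9 more groups. The lowest CPM of their group were 72.1 for Eci2 in female Western diet replicate 6, 483 for Acsl1 in male sham replicate 6, 66.9 for Hsd17b10 in female sham replicate 10 and 145 for Esrra in female mixed field replicate 4. The highest CPM of their group were 9.71 for Etfb in male gamma replicate 7, 9.05 for Etfb in female gamma replicate 3, 51.2 for Ppard in male gamma replicate 3, 153 for Ppargc1a in female gamma replicate 2 and 268 for Esrra in male mixed field replicate 1.

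The difference between title runs differed between the sexes, by the interaction contrast of edgeR, in 12 members. The male minus female log2 values were 1.36 for Cpt1b, 0.61 for Acad10, 0.37 for Ppargc1a and 0.34 for Cpt1a. They were -0.33 for Acads, -0.29 for Crat, -0.27 for Acaa1a, -0.26 for each of Slc25a20, Acaa2 and Mlycd, -0.25 for Cpt2 and -0.23 for Esrra.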

How the results depend on the processing

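The treatment comparisons with sham over both title runs, their sex differences and the mixed field against gamma radiation kept 0 called members in each alternative run. With libraries over 10 CPM of Myl7 left out, the median log2 change of the members under the mixed field in males was 0.0705, against -0.05 with all libraries. Most males titled 1-20 are among those left out, so such fits also change the balance of title runs. For the mixed field within titles 1-20, DESeq2 and the fit without a filter called 1 member each, against 0. For the Western diet within titles 1-20, limma voom called 2 and the fits without female gamma replicate 7, without female mixed field replicate 10 or with the Rn18s-rs5 term called 0, against 1. Between males and females the count was 2 without a filter and 0 without the Myl7 libraries, against 4. It was 9 with the run term, which gives the difference at titles 1-20 only. With the Rn18s-rs5 term, title runs in males gave 4 and the male minus female difference 1, against 20 and 12. With Ppara as a further term, and Ppara itself not counted, the slope on Ppargc1a gave 0, against 15 with Ppara counted. Without the Myl7 libraries the sign turned for Ppara in the Western diet effect of males minus females (-0.00144) and for Slc25a20 after gamma radiation in males (0.0140). It turned for Acad10 in the sex difference of the runs with the Rn18s-rs5 term (-0.0215). Acaa1a between the sexes was at 0.0236 with the run term, a comparison at titles 1-20 only, against a negative value over both runs. The cause was not tested.

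Leaving out 1 library, or 1 replicate of every set, gave ranges of called members of 10 to 21 for title runs in males, 5 to 11 in females and 7 to 15 for their difference, 3 to 7 between the sexes and 8 to 16 for the slope on Esrra. Within titles 1-20 it gave 0 to 5 for the Western diet, 0 to 4 for the mixed field and 0 to 1 for gamma radiation, and 0 to 2 for the mixed field difference between runs. With a replicate block on the title number, 4 members differed between males and females, as without it. Leaving out single libraries was not run for the slope on Ppard. Without female gamma replicate 7 edgeR lost Decr1 between title runs in females, Acadl for the mean of the sexes and Acot13 on Ppara. Without female mixed field replicate 10 it lost Decr1 between title runs in females and Cpt2 between the sexes. Also lost there were Ppargc1a in the sex difference of the runs, Cpt1b, Hsd17b10 and Acot13 on Ppara and Ppard on Ppargc1a. Without the Myl7 libraries, sets of male libraries titled 1-20 were emptied, so title runs in males, treatments within titles 1-20 and the differences that need them gave no value. Low counts limit Cpt1b, Etfb and Acad10 most, at means of 7.10, 5.76 and 10.3 CPM, and those of Cpt1b and Etfb may be reduced by shared exons.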
